A study of Rattus norvegicus with 4 samples.

Results

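The genes described here encode the proteins of the mitochondrial ribosome. They were taken from the deposited gene table by their symbols, as every row that begins with Mrpl (large subunit) or Mrps (small subunit) followed by a digit. This gave 76 of the 32545 rows, 46 of them Mrpl and 30 Mrps, under 73 symbols. Liver messenger RNA was sequenced in rats under chronic sleep restriction that were also kept active, with 2 libraries, and in rats under forced activity without sleep restriction, with 2 libraries. Forced activity was therefore shared by all animals, and the comparison asks what restricted sleep adds to it. Strain, sex, age and the length of the restriction are not given in the sources used here, nor whether the libraries of a group came from separate animals. Hence each p-value measures the spread between these libraries, which may be technical.

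Mitochondria keep a small genome that encodes a few subunits of the respiratory chain, and they translate these on ribosomes of their own. The ribosomal RNAs come from the mitochondrial genome, while all ribosomal proteins are encoded in the nucleus, made in the cytosol and imported. Many of these proteins have counterparts in bacterial ribosomes, and others exist only in mitochondria. Hepatocytes are rich in mitochondria and depend on them for urea synthesis, gluconeogenesis and fatty acid oxidation.

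Promoters of nuclear genes for mitochondrial proteins are known for sites of the factors NRF1, GABPA (an ETS factor) and YY1, and for GC boxes, which bind Sp1. The 300-base promoter windows of RefSeq (build GRCr8, 250 bases before and 50 after the start) were searched on both strands for GCATGCGC (NRF1 core), CCGGAAG (ETS), AAGATGG (YY1) and GGGCGG (GC box). For 56 of the 73 symbols the table held exactly 1 window. The sequences below read 5′ to 3′ along the gene, with motif matches in capitals. Mrpl32 and Mrps18b are shown as the large and small subunit genes with the most matches among the genes tested, Mrpl18 as a gene tested that had none, and Mrpl46 because its start lies beside that of the small subunit gene Mrps11.
Mrpl32: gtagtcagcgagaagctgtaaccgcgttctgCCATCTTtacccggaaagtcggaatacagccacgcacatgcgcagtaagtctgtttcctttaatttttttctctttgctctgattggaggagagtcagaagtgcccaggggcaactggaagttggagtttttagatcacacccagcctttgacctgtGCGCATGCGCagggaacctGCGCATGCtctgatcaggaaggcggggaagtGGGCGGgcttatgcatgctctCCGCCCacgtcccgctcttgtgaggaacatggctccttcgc
Mrps18b: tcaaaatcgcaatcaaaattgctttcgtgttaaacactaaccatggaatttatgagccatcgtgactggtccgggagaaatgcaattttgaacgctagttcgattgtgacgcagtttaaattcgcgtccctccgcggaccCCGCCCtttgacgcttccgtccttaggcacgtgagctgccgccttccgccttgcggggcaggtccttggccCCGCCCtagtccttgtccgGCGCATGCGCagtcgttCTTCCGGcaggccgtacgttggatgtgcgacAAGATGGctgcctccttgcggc
Mrpl18: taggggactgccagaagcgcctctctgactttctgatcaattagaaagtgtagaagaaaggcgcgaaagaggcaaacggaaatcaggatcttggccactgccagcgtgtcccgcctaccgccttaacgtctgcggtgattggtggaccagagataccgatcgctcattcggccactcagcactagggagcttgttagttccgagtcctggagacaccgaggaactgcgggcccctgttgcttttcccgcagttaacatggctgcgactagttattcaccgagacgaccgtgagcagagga
Mrpl46: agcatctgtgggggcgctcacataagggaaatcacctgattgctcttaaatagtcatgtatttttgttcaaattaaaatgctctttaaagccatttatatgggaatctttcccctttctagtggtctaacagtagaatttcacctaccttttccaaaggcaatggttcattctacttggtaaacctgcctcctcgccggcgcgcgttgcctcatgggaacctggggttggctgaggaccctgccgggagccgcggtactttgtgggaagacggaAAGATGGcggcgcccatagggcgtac

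In GRCr8 these windows are chr17:55260401-55260700 on the plus strand for Mrpl32, chr20:2842756-2843055 on the plus strand for Mrps18b, chr1:50384702-50385001 on the plus strand for Mrpl18 and chr1:142116981-142117280 on the minus strand for Mrpl46. The Mrpl32 window held 3 NRF1 core matches, 2 of which overlap because the stretch is palindromic and reads as a match on either strand, together with 1 YY1 and 2 GC box matches. The Mrps18b window held 2 overlapping NRF1 core matches, 1 ETS, 1 YY1 and 2 GC box matches. The window of Mrps11 runs on the plus strand and shares 267 bases with that of Mrpl46, so the large and small subunit genes are read outwards from nearly the same promoter DNA.

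Among the 56 windows, 18 (32.1%) held the ETS motif, against 19.3% of the 3656 windows of all genes tested (those past a filter on low counts) and 8.75% of all 33469 windows. The YY1 motif was in 16 (28.6%), against 10.3% of the windows of genes tested and 7.01% of all windows. The NRF1 core was in 5 (8.93%), against 5.42% and 2.47%. The GC box went the other way against the genes tested, with 28 of 56 windows set beside 64.1% of genes tested and 33.1% of all windows. Some of the 56 windows belong to Mrpl and Mrps genes that were not tested, so these shares are not like for like with those of genes tested. Among the windows of Mrpl and Mrps genes tested, 12 had the ETS motif and 29 did not. The counts were 11 and 30 for YY1, 5 and 36 for the NRF1 core, and 22 and 19 for the GC box. In 15 of the 56 windows none of the 4 motifs was found, and 19 held matches to at least 2 of them. In no window did an ETS match overlap a YY1 match. These shares describe letters in a fixed window and say nothing of binding. The 5 genes tested with the NRF1 core had a median log2 change of 0.28 for sleep restriction over forced activity, and the 36 without it had -0.14. The signs of the 5 were mixed: Mrpl32 (0.75), Mrpl22 (0.52), Mrpl44 (0.28), Mrps18b (-0.14) and Mrpl17 (-0.51). The median of those 5 was 0.07 in the replicate 1 and 0.47 in the replicate 2 libraries, and 0.0036 without sleep restriction 2. For the ETS motif the medians were -0.23 over 12 genes with it and -0.12 over 29 without, and for the YY1 motif -0.16 over 11 and -0.12 over 30. For the GC box they were -0.15 over 22 genes with it and -0.12 over 19 without. In the replicate 1 libraries the medians with and without ETS were -0.13 and -0.05. For YY1 they were 0.01 and -0.12, and for the GC box -0.05 and -0.13. In the replicate 2 libraries they were -0.40 and -0.10, -0.36 and -0.12, and -0.31 and -0.10, in the same order of motifs. Without sleep restriction 2 the ETS medians were -0.0767 with the motif and -0.0833 without.

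**Figure D1:**
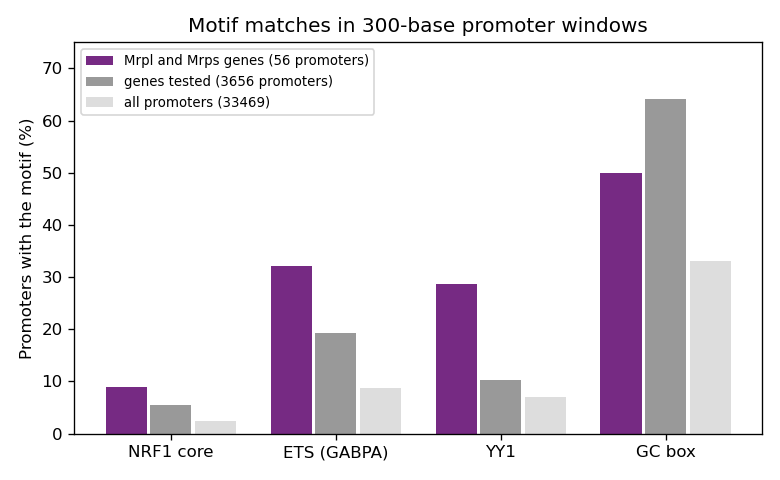
Percentage of 300-base promoter windows with at least 1 match to each motif on either strand. Bars are for the Mrpl and Mrps genes, tested or not, for all genes tested (which include only some of them) and for all windows. The ETS and YY1 bars of the Mrpl and Mrps genes, at 32.1% and 28.6%, are the highest of their groups, while the GC box bar, 28 of 56 windows, lies between the 64.1% of genes tested and the 33.1% of all windows.

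The 4 columns of counts summed to between 508202.6 and 520275.6. These near-equal totals hide unequal depth, because the values move in steps of 0.1 in every column but that of sleep restriction 2, as averages over random draws of reads would, and more genes were above 0 in the replicate 1 libraries (14105 in sleep restriction 1 and 14008 in forced activity 1) than in the replicate 2 libraries (10952 and 11943). Values within the replicate 1 libraries and within the replicate 2 libraries are therefore given for the sum over all rows, many group medians and some genes. Where they are not given, agreement between the pairs should not be assumed. The summed level of 9 hepatocyte markers was 180767 and 189273 CPM (counts per 1e6 counts in tested genes, scaled by TMM) in sleep restriction 1 and 2, against 172602 and 182712 CPM in forced activity 1 and 2. The markers of skeletal muscle (Acta1, Ckm and Myh1) were at 0 in all 4 libraries. Those of exocrine pancreas (Prss1, Cpa1 and Cela1) summed to 42.1 and 36.6 CPM under sleep restriction and 50.6 and 19.9 CPM under forced activity, with Cpa1 at 0. In whole liver, fewer cells of a type and less RNA per cell cannot be told apart.

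Each gene of the mitochondrial ribosome was covered thinly. Of the 76 rows, 55 passed the filter on low counts (30 Mrpl and 25 Mrps), 16 had counts but stayed under it, and 5 were at 0 in every library. The counts of the 55 ranged from 6 to 46.3 in a library, and the median gene had a mean of 15.1. For a single count of that size, plain counting alone gives a coefficient of variation of 25.8%. The observed median over the 4 libraries was 20.5%. Columns that look like averages over draws are likely to carry less counting error than a single count. Comparing these percentages therefore cannot decide whether the spread exceeds counting error. The spread among libraries was narrowest for Mrpl51, at 5.17%, and widest for Mrpl32, at 54.5%.

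Summed over all 76 rows, the genes made up 0.199% (exact binomial 95% interval 0.187% to 0.211%) and 0.195% (0.183% to 0.207%) of all counts in sleep restriction 1 and 2. The share was 0.200% (0.188% to 0.213%) and 0.218% (0.205% to 0.231%) in forced activity 1 and 2. These intervals treat each value as a single count and cover counting error only. For the columns that look like averages over draws they are likely too wide. They overlap for every pair of libraries between the groups, but for that reason their overlap decides nothing. It was least for sleep restriction 2 and forced activity 2, where the upper limit of 0.207% lies just above the lower limit of 0.205%.

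On the scaled level, the sum was 2086 and 2065 CPM under sleep restriction, against 2155 and 2204 CPM under forced activity. The means were 2076 ± 14.3 CPM and 2179 ± 34.9 CPM (SD, 2 libraries each), a log2 ratio of -0.07 for sleep restriction over forced activity, or -4.77%. Both libraries of sleep restriction were lower than both of forced activity, by -0.05 on the log2 scale in the replicate 1 libraries and -0.09 in the replicate 2 libraries. A two-sided exact permutation test of 2 against 2 libraries cannot give a p below 0.333, so no p is attached to this difference.

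The large subunit summed to 1263 and 1233 CPM under sleep restriction and to 1302 and 1275 CPM under forced activity, a log2 ratio of -0.05. The small subunit summed to 823 and 832 CPM under sleep restriction and to 853 and 929 CPM under forced activity, a log2 ratio of -0.11. In both subunits the libraries of the groups did not overlap, and forced activity 2 had the highest sum for the small subunit while forced activity 1 had it for the large one. The ratio of large to small subunit counts was 1.53 and 1.48 under sleep restriction and 1.53 and 1.37 under forced activity, so the groups overlapped and forced activity 2 stood lowest.

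**Figure D2:**
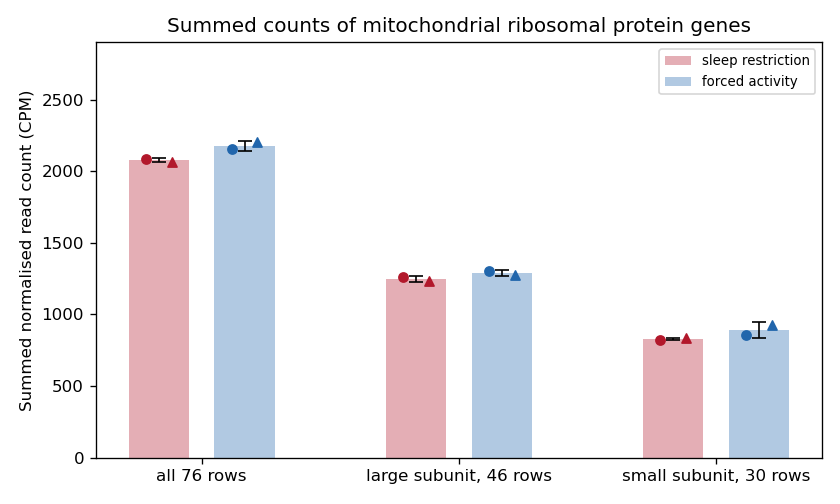
Summed normalised read counts (CPM) of all 76 rows, of the large subunit and of the small subunit. Bars are means of 2 libraries with SD, circles are replicate 1 and triangles replicate 2; the small subunit in forced activity 2, at 929 CPM, is the point farthest from its group's other library, at 853 CPM.

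Genes were compared one at a time with edgeR's quasi-likelihood test over all 4986 genes past the filter, which made 1 call below an adjusted p of 0.05, or 0.0201% of the genes. Of the 55 Mrpl and Mrps genes tested, 0 were called. None had an unadjusted p under 0.05 either, the smallest being 0.0805 for Mrpl52, and DESeq2 and limma-voom called 0 of 55 as well. All 55 had an adjusted p of 0.999 in edgeR. The median standard error on the log2 change was 0.28, so small and moderate changes of single genes were not detectable at this depth. Even the log2 change of 0.75 in Mrpl32 was not called. The lack of calls therefore does not show that levels were unchanged.

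The changes lay on both sides of 0. A negative log2 change of sleep restriction over forced activity was found in 32 of 55 (58.2%), against 47.5% of all genes tested, and a positive one in 23. The median was -0.12, against 0.0034 for all genes tested, and the middle of the distribution ran from -0.34 to 0.11 between the quartiles, against -0.17 to 0.20. Groups did not overlap and sleep restriction was lower for 17 genes (30.9%, against 15.3% of all genes tested). Groups did not overlap and sleep restriction was higher for 5 genes (9.09%, against 17.2%). The large subunit had 8 of the 17 and 3 of the 5, and the small subunit had 9 and 2. With the same 55 genes kept and 1 library left out, the median ran from -0.14 to -0.06, the value nearest 0 being that without sleep restriction 2. The median of the same 30 large subunit genes was -0.11, and it was -0.0058 without forced activity 1 and 0.0035 without sleep restriction 2. The median of the same 25 small subunit genes was -0.14, and it was -0.09 without forced activity 2.

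**Figure D3:**
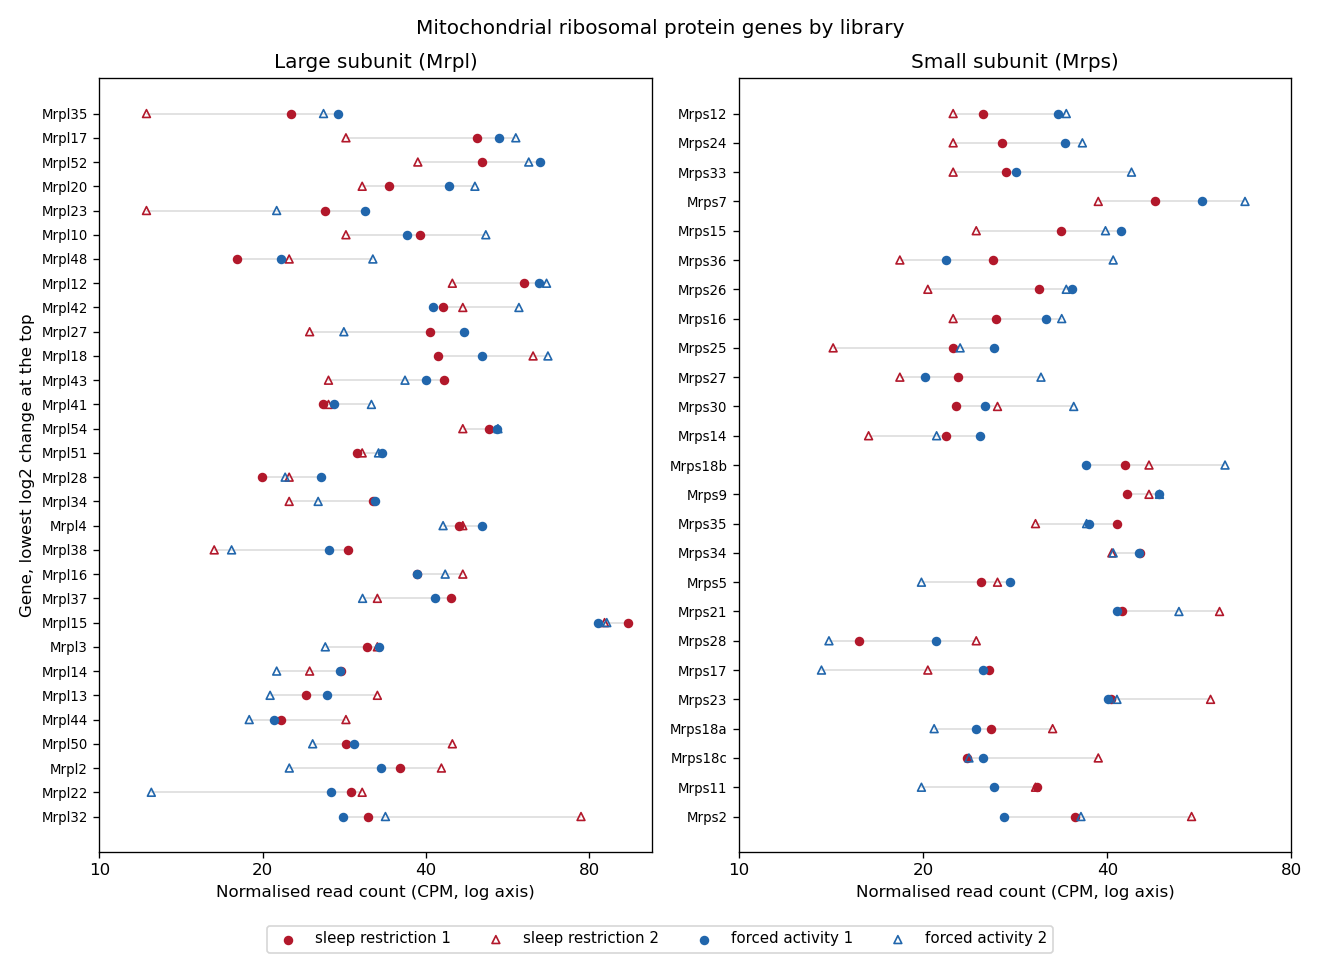
Normalised read count (CPM, log axis) of the 55 Mrpl and Mrps genes tested in each of the 4 libraries, in order of log2 change; circles are replicate 1, open triangles replicate 2. Red points (sleep restriction) lie left of blue ones (forced activity) for several genes near the top, such as Mrps12, and sleep restriction 2 stands far right for Mrpl32, at 77.3 CPM.

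The 2 pairs of same-numbered libraries differed in how far they moved. The median change of the 55 genes was -0.05 in the replicate 1 libraries and -0.14 in the replicate 2 libraries, and for the small subunit it was -0.05 and -0.33. Changes ran from -0.41 to 0.29 in the replicate 1 libraries and from -1.01 to 1.13 in the replicate 2 libraries. Over all genes tested the medians were 0.0071 and 0.0079, and changes ran from -3.56 to 2.29 and from -3.08 to 2.70. Fewer genes were above 0 in the replicate 2 libraries, and the part of depth in the wider range of the 55 genes was not tested. In both pairs 23 genes (41.8%) were lower under sleep restriction, against 27.4% of all genes tested, and 13 (23.6%) were higher, against 28.9%. Sleep restriction 2 was the lowest of the 4 libraries for 25 of 55 genes (45.5%, against 31.1% of all genes tested). Forced activity 2 was the highest for 19 (34.5%, against 26.0%).

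**Figure D4:**
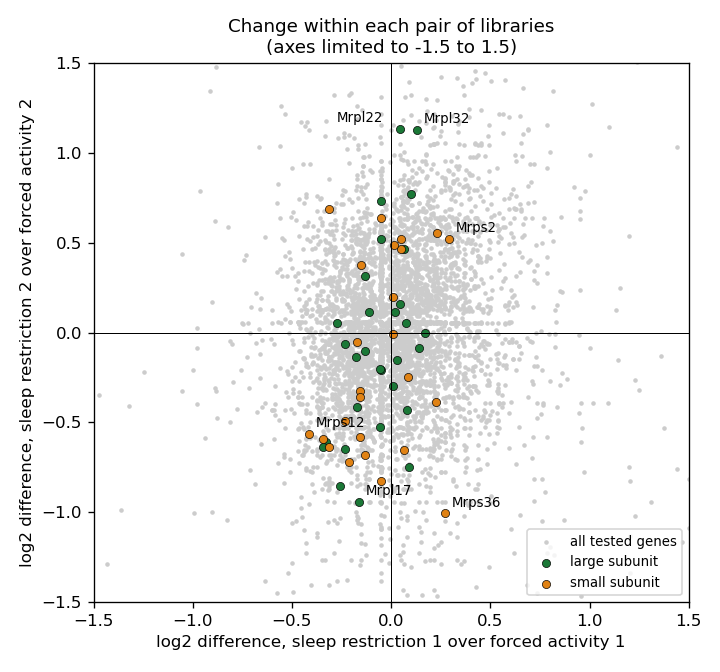
Difference in log2 CPM within the replicate 1 libraries (horizontal) and within the replicate 2 libraries (vertical), sleep restriction over forced activity, for large subunit genes, small subunit genes and all genes tested (grey, those beyond the axis limits not shown). The Mrpl and Mrps points spread from -1.01 to 1.13 vertically and from -0.41 to 0.29 horizontally.

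Other cell types did not keep the same level across libraries. The summed level of endothelial markers was 641 and 360 CPM under sleep restriction and 256 and 709 CPM under forced activity, over 10 of the 11 listed genes. Red cell genes summed to 1234 and 761 CPM under sleep restriction and 926 and 1927 CPM under forced activity, over 6 genes, and macrophage markers to 1132 and 794 CPM, against 719 and 951 CPM, over 12 genes. None of these genes was at 0 in all libraries. Stellate markers summed to 728 and 545 CPM under sleep restriction and 661 and 579 CPM under forced activity. Cholangiocyte markers summed to 28.3 and 24.4 CPM, against 37.3 and 30.2 CPM. Forced activity 2 had the highest small subunit sum and the highest endothelial and red cell sums. Sleep restriction 1, next highest in both of those marker sums, had the lowest small subunit sum, at 823 CPM, close to the 832 CPM of sleep restriction 2. The part of these cells in the values of the ribosomal genes was not tested.

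In the large subunit, the genes with the largest negative changes were Mrpl35, Mrpl17, Mrpl52 and Mrpl20. Mrpl52 (chromosome 15, 33069382 to 33072777 in rn6), which has no bacterial counterpart, measured 50.9 and 38.7 CPM under sleep restriction and 64.8 and 61.9 CPM under forced activity, a log2 change of -0.48 (SE 0.25, unadjusted p 0.0805, adjusted p 0.999). Its groups did not overlap, and its change was -0.34 in the replicate 1 and -0.64 in the replicate 2 libraries, and -0.31 without sleep restriction 2. Mrpl20 (chromosome 5, 173248245 to 173252775), whose bacterial counterpart binds early in assembly of the large subunit, had 34.2 and 30.5 CPM under sleep restriction and 44.1 and 49.3 CPM under forced activity, a log2 change of -0.47 (SE 0.25). It stayed between -0.56 and -0.40 when any 1 library was left out.

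The other 2 leaned on 1 library. Mrpl17 (chromosome 1, 170652294 to 170653920), which has a bacterial counterpart, had 49.7 and 28.5 CPM under sleep restriction and 54.7 and 58.6 CPM under forced activity, a log2 change of -0.51 (SE 0.28) that was -0.21 without sleep restriction 2. Within the replicate 1 and replicate 2 libraries it was -0.16 and -0.94. Mrpl35 (chromosome 4, 99738792 to 99746560), also with a bacterial counterpart, had 22.6 and 12.2 CPM under sleep restriction and 27.5 and 25.9 CPM under forced activity, a log2 change of -0.51 (SE 0.33), likewise -0.21 without sleep restriction 2, and -0.26 and -0.85 within the replicate 1 and replicate 2 libraries. In both genes sleep restriction 1 was only slightly under the forced activity libraries, while sleep restriction 2 was well below them.

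At the other end of the large subunit stood Mrpl32, Mrpl22, Mrpl2 and Mrpl50. Mrpl32 (chromosome 17, 53102534 to 53105400), whose precursor is cut by the mitochondrial m-AAA protease in yeast and mouse, had 31.3 and 77.3 CPM under sleep restriction and 28.2 and 33.7 CPM under forced activity. Its log2 change was 0.75 (SE 0.39, unadjusted p 0.0852, adjusted p 0.999), the largest of the 55. It rests on sleep restriction 2, since sleep restriction 1 lay between the forced activity libraries and the change was -0.0030 without sleep restriction 2. The neighbouring gene Psma2, a proteasome subunit whose interval lies 191 bases away, had a log2 change of 0.10.

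Mrpl22 (chromosome 10, 43601689 to 43612121), which lines the exit tunnel of the ribosome, had 29.1 and 30.5 CPM under sleep restriction and 26.7 and 12.5 CPM under forced activity, a log2 change of 0.52 (SE 0.34). Here forced activity 2 stood apart, and without it the change was 0.08. Mrpl2 (chromosome 9, 16643619 to 16647458), a core protein near the peptidyl transferase centre, had 35.8 and 42.7 CPM under sleep restriction and 33.1 and 22.4 CPM under forced activity, a log2 change of 0.43 (SE 0.27) with groups that did not overlap, and 0.20 without forced activity 2. Mrpl50, a protein without a bacterial counterpart, had 28.5 and 44.8 CPM under sleep restriction and 29.5 and 24.7 CPM under forced activity, with overlapping groups and a log2 change of 0.37 that was 0.04 without sleep restriction 2. Mrpl44, which has a fold related to RNase III, had 21.6 and 28.5 CPM under sleep restriction and 21.0 and 18.9 CPM under forced activity, a log2 change of 0.28 with no overlap, and 0.11 without sleep restriction 2.

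The large subunit genes with the most counts had smaller log2 changes, apart from Mrpl52. Mrpl15 had 94.2 and 85.5 CPM under sleep restriction and 83.3 and 86.3 CPM under forced activity, a log2 change of 0.08 (SE 0.22) that was 0.01 without sleep restriction 1. Mrpl12, the counterpart of the bacterial stalk protein, had 60.7 and 44.8 CPM under sleep restriction and 64.6 and 66.8 CPM under forced activity, a log2 change of -0.28 (SE 0.25) that was -0.09 without sleep restriction 2. Mrpl18, related to the bacterial protein that binds the 5S ribosomal RNA, had 42.1 and 63.1 CPM under sleep restriction and 50.9 and 67.2 CPM under forced activity. Its log2 change of -0.14 was 0.09 without sleep restriction 1 and 0.05 without forced activity 2. In both groups of Mrpl18 the replicate 2 library was the higher, and Mrpl54, found only in mitochondria, was nearly level at 52.3 and 46.8 CPM under sleep restriction and 54.0 and 54.3 CPM under forced activity, a log2 change of -0.13 that was -0.05 without sleep restriction 2.

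In the small subunit, Mrps12, Mrps24, Mrps33 and Mrps7 had the largest negative changes, and the groups did not overlap in any of the 4. Mrps12 (chromosome 1, 86920680 to 86923575), the counterpart of the bacterial decoding-centre protein in which streptomycin resistance arises, had 25.03 and 22.4 CPM under sleep restriction and 33.3 and 34.3 CPM under forced activity. Its log2 change of -0.49 (SE 0.26, unadjusted p 0.147, adjusted p 0.999) was -0.41 in the replicate 1 and -0.56 in the replicate 2 libraries, and it stayed between -0.55 and -0.44 when any 1 library was left out. Mrps7 (chromosome 10, 104155805 to 104158839), which binds ribosomal RNA in the head of the subunit, had 47.8 and 38.7 CPM under sleep restriction and 57.2 and 67.2 CPM under forced activity, a log2 change of -0.46 (SE 0.25). Within the replicate 1 libraries it was -0.21 and within the replicate 2 libraries -0.72.

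Mrps24, which takes the place of the bacterial protein at the entrance of the messenger RNA channel, had 26.9 and 22.4 CPM under sleep restriction and 34.1 and 36.4 CPM under forced activity, a log2 change of -0.47 (SE 0.26). Mrps33, found only in mitochondria, had 27.3 and 22.4 CPM under sleep restriction and 28.4 and 43.8 CPM under forced activity. Its log2 change of -0.47 (SE 0.29) leaned on forced activity 2 and was -0.16 without it. The other genes with no overlap and a negative change were Mrpl12, Mrpl41, Mrpl51, Mrpl54, Mrps9, Mrps15, Mrps16, Mrps25 and Mrps26, with changes between -0.46 and -0.11.

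Among small subunit genes with positive changes were Mrps2, Mrps11, Mrps18c and Mrps18a. Mrps2 had 35.4 and 54.9 CPM under sleep restriction and 27.1 and 36.2 CPM under forced activity, a log2 change of 0.42 (SE 0.29) with overlapping groups, and 0.08 without sleep restriction 2. It was 0.29 in the replicate 1 and 0.52 in the replicate 2 libraries. Mrps11 (chromosome 1, 140477868 to 140487248) had 30.7 and 30.5 CPM under sleep restriction and 26.1 and 19.9 CPM under forced activity, a log2 change of 0.39 (SE 0.28) with groups that did not overlap, and 0.22 without forced activity 2. Its divergent partner Mrpl46, 71 bases away in the deposited rn6 intervals, was under the filter at 8.8 and 8 counts under sleep restriction and 8.5 and 10.6 counts under forced activity, and so lay a little lower rather than higher.

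The paralogues Mrps18a, Mrps18b and Mrps18c descend from 1 bacterial small subunit protein, and their log2 changes had both signs. Mrps18c, which sits where the bacterial protein does, had 23.6 and 38.7 CPM under sleep restriction and 25.01 and 23.8 CPM under forced activity, a log2 change of 0.33 (SE 0.29) that was -0.0030 without sleep restriction 2. Mrps18b, which binds elsewhere on the small subunit, had 42.7 and 46.8 CPM under sleep restriction and 36.9 and 62.3 CPM under forced activity, a log2 change of -0.14 (SE 0.29) that was 0.28 without forced activity 2. Mrps18a, which despite its symbol is built into the large subunit, had 25.8 and 32.6 CPM under sleep restriction and 24.4 and 20.8 CPM under forced activity, a log2 change of 0.29 (SE 0.28) that was 0.15 without sleep restriction 2. Differences between the paralogues were not tested.

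The small subunit genes with the most counts were Mrps7, Mrps21, Mrps18b, Mrps9 and Mrps23. Mrps9 had 43.1 and 46.8 CPM under sleep restriction and 48.5 and 48.7 CPM under forced activity, a log2 change of -0.11 that was -0.06 without sleep restriction 1. Mrps21 had 42.3 and 61.0 CPM under sleep restriction and 41.5 and 52.4 CPM under forced activity, with the replicate 2 library higher in each group. Its log2 change of 0.11 was -0.15 without sleep restriction 2 and -0.02 without forced activity 1. Mrps23, a protein found only in mitochondria, had 40.5 and 59.0 CPM under sleep restriction and 40.1 and 41.5 CPM under forced activity, and its log2 change of 0.27 was -0.0032 without sleep restriction 2.

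Some symbols had more than 1 row. Mrpl36 had rows on chromosome 1 from 31261168 to 31262668 and from 32570094 to 32570791, and Mrpl53 had rows on chromosome 4 from 113941839 to 113942876 and from 114807563 to 114808854, all at 0 in the 4 libraries. Mrps36 had a row on chromosome 9 at 0 and a row on chromosome 2 with 26.1 and 18.3 CPM under sleep restriction and 21.8 and 40.9 CPM under forced activity. Mrps36 has since been described as a subunit of the oxoglutarate dehydrogenase complex rather than of the ribosome. Its log2 change of -0.43 had opposite signs in the pairs, 0.27 in the replicate 1 and -1.01 in the replicate 2 libraries, and it was 0.06 without forced activity 2. How reads of genes with a near-identical copy were counted is uncertain, and Mrpl1 was almost uncounted too, at 0.2 and 0 counts under sleep restriction and 0 and 0.3 under forced activity.

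The 16 rows with counts under the filter summed to 204 and 218 CPM under sleep restriction and 186 and 207 CPM under forced activity, so the groups overlapped. The 55 that passed summed to 1882 and 1848 CPM under sleep restriction and 1968 and 1998 CPM under forced activity. The difference between groups in the sum over all 76 rows is thus carried by the rows past the filter.

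The median differed with descent. The 33 genes tested with a bacterial counterpart had a median log2 change of -0.04 and the 22 without one had -0.14 (of the Mrps18 paralogues, Mrps18c alone was counted as a counterpart). The order was reversed in the replicate 1 libraries, with -0.13 for genes with a counterpart and 0.0097 for those without, and ran the same way in the replicate 2 libraries, with -0.0036 and -0.27.

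Genes of the mitochondrial ribosome are short on the genome, with a median span of 6.06 kb against 22.04 kb for all genes tested. Of the 55, 39 were in the quartile of shortest spans, under 9.42 kb. There they had a median log2 change of -0.14, while all 1247 genes tested in that quartile had -0.09, and 64.1% of those were negative, as were 25 of the 39 ribosomal genes (the same share). In the next quartile 7 of 9 ribosomal genes were positive, with a median of 0.10 against -0.02 for all genes tested there. In the third quartile 3 of 4 ribosomal genes were negative, with a median of -0.12 against 0.04 for all genes tested there. In the quartile of longest spans 2 of 3 were negative, with a median of -0.11 against 0.11 for all genes tested there. The median of all genes in the shortest quartile was -0.07 in the replicate 1 libraries and -0.12 in the replicate 2 libraries, against -0.05 and -0.20 for the 39. A lower median among short genes was thus shared by genes of other functions, and its part in the values of the ribosomal genes was not tested.

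**Figure D5:**
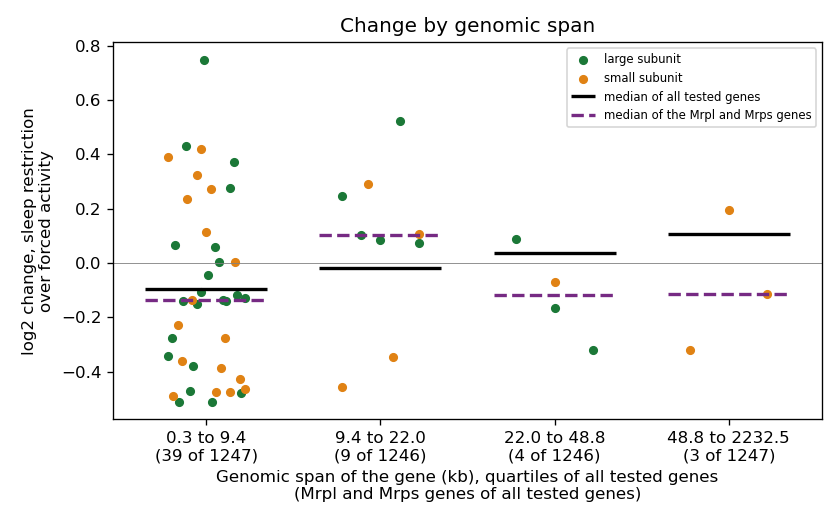
log2 change of the 55 Mrpl and Mrps genes by quartile of genomic span over all genes tested, with the median of all genes tested (black) and of the Mrpl and Mrps genes (dashed). Most of the genes lie in the shortest quartile, where the medians are -0.14 for the 39 genes and -0.09 for all 1247.

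Some neighbours are close as well, though the share of close neighbours over all rows was not counted. In the deposited rn6 intervals, 23 of the 76 rows had another gene less than 1 kb away without overlap, and 11 rows overlapped another gene, 7 of them among those tested. Mrps12 lies 15 bases from Sars2, the mitochondrial seryl-tRNA synthetase, which was under the filter, with 3.6 and 6 counts under sleep restriction and 3.6 and 3.9 counts under forced activity. Mrpl43 overlaps Peo1, the mitochondrial DNA helicase, whose log2 change was 0.30 (-0.12 and 0.62 in the replicate 1 and replicate 2 libraries) against -0.14 for Mrpl43 (0.08 and -0.43), and Mrpl18 lies 371 bases from the chaperonin gene Tcp1, whose log2 change was 0.34. The table's own name marks its counts as sense strand, but the labels do not describe this, so shared reads of overlapping genes are uncertain, among them those of Mrps2, Mrps7, Mrps9 and Mrps18a. These neighbours were chosen after their values were seen.

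Proteins of the mitochondrial ribosome with other symbols were also split. All 5 listed genes found were tested, 0 were called, 2 were negative and 3 positive, with a median of 0.04. Ict1, a release factor built into the large subunit, had 21.8 and 16.3 CPM under sleep restriction and 30.7 and 33.5 CPM under forced activity, a log2 change of -0.60 (SE 0.29, unadjusted p 0.0899, adjusted p 0.999). Dap3, which binds GTP in the small subunit, had 19.9 and 18.3 CPM under sleep restriction and 33.7 and 24.7 CPM under forced activity, a log2 change of -0.52 (SE 0.29). Neither gene's groups overlapped.

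Other genes of the pathway gave no call. Among mitochondrial translation factors 6 of 16 rows were tested, with 0 called and a median of 0.17, which was -0.05 in the replicate 1 and 0.41 in the replicate 2 libraries. The elongation factor Gfm1 had 76.7 and 85.5 CPM under sleep restriction and 71.0 and 62.1 CPM under forced activity (log2 change 0.27). Guf1, a translation factor related to bacterial LepA, had a log2 change of 0.34 with overlapping groups and opposite signs in the pairs, -0.13 in the replicate 1 and 0.74 in the replicate 2 libraries. Aminoacyl-tRNA synthesis had 6 of 23 rows tested, 0 called and a median of 0.06, with Tars2, the mitochondrial threonyl-tRNA synthetase, at 0.13 and Kars, which charges lysine tRNA in both compartments, at 0.08. Assembly and ribosomal RNA modification had 7 of 26 rows tested, 0 called and a median of 0.0034, with the pseudouridine synthase family member Rpusd3 at 0.43 and the RNA helicase Dhx30 at -0.19. Rpusd3 had 19.5 and 34.6 CPM under sleep restriction and 21.2 and 18.1 CPM under forced activity, so it stood apart in sleep restriction 2 alone, and its change was -0.05 in the replicate 1 and 0.84 in the replicate 2 libraries.

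Genes that transcribe and maintain mitochondrial DNA had 7 of 10 rows tested, 0 called and 6 negative. Their median was -0.17, or -0.05 in the replicate 1 and -0.27 in the replicate 2 libraries. Tfb2m, the initiation factor of the mitochondrial RNA polymerase, had 25.4 and 18.3 CPM under sleep restriction and 28.4 and 42.5 CPM under forced activity, a log2 change of -0.64 (SE 0.30, unadjusted p 0.0614, adjusted p 0.999). Tfam, which packages mitochondrial DNA and starts its transcription, had 30.9 and 30.5 CPM under sleep restriction and 39.6 and 40.5 CPM under forced activity, a log2 change of -0.37 (SE 0.25) with no overlap. Of the regulators of nuclear mitochondrial genes 3 of 10 were tested and 0 were called. Esrra, a nuclear receptor of mitochondrial gene programmes, had 25.4 and 22.4 CPM under sleep restriction and 21.4 and 10.1 CPM under forced activity. Its log2 change of 0.51 (SE 0.37) was 0.17 in the replicate 1 and 0.94 in the replicate 2 libraries. Yy1 had a log2 change of 0.15 (SE 0.46).

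Related groups of genes had larger shares of negative changes. Cytosolic ribosomal protein genes, by the same kind of symbol rule, had 59 of 61 negative with a median of -0.27, and -0.22 and -0.34 in the replicate 1 and replicate 2 libraries. Nuclear subunits of oxidative phosphorylation had 51 of 69 negative with a median of -0.11, and -0.14 and -0.09 in those libraries. The difference between these groups was not tested. The SD of log2 changes over genes was 0.31 for the mitochondrial ribosome, 0.15 and 0.20 for these groups and 0.32 for all genes tested, with median SEs of 0.28, 0.21, 0.22 and 0.27 in the same order.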

How the data were processed

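Liver RNA of 4 rat libraries was extracted with TRIzol and made into messenger RNA libraries with an Illumina kit, per the labels' protocols. Per the submitters' processing notes, CASAVA, STAR 2.4.1d and rn6 were used, in roles the notes do not state here, and no counter is named. The authors deposited estimated counts per Ensembl gene, in steps of 0.1 in 3 of the 4 columns and nearly all whole in sleep restriction 2, with near-equal totals from 508202.6 to 520275.6. The name of the table and the values point to averages over 10 draws, which no label describes.

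After rounding to whole numbers, all genes were tested together with edgeR 4.0.16 in R 4.3.3: filterByExpr with its minimum count of 10, TMM factors, robust quasi-likelihood, prior count 2 and Benjamini-Hochberg adjustment over 4986 genes, called under 0.05. SE is the size of the log2 change over the square root of F. CPM came from unrounded values and tested-gene totals. Values within same-numbered libraries are log2 CPM differences with a prior count of 2. Alternatives used DESeq2 1.42.0, limma 3.58.1, other scalings and filters, a replicate block and leaving out each library.

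The genes and lists were chosen with earlier results of these data known. Named are, per subunit, the 5 genes with the most counts, the 4 largest changes in each direction; over both subunits, up to 6 per direction whose groups do not overlap, genes at 0 in all libraries, symbols with more than 1 row, and the 2 smallest p in each list of the pathway. Any gene named outside this rule (Mrpl1, Mrpl41, Mrpl43, Mrpl46, Mrpl51, Mrps15, Mrps16, Mrps25, Mrps26 and the neighbours) was chosen after its values were seen. The files carry no coding lengths, so levels were not compared between genes.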

Additional observations from a re-analysis of the deposited data

How the results depend on the processing

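No Mrpl or Mrps gene was called under any of the 15 alternatives, and the smallest adjusted p of a named gene was 0.61. The median log2 change of all genes tested in the group stayed negative, from -0.144 (DESeq2) to -0.0325 (without forced activity 1); leaving out 1 library gave -0.119 to -0.0325, over 57 to 62 genes in place of 55 because the filter was run again. For the large subunit it was -0.0660 when no filter was applied and -0.0693 under a minimum of 5 CPM in 2 libraries, each over 41 genes in place of 30. It ran from -0.113 to -0.00218 with 1 library left out, over 31 to 35 genes, a fit that takes the remaining library's spread from the other group. With the genes of the full fit kept, an alternative chosen after seeing the data, it was -0.134 to 0.00351 (-0.00580 without forced activity 1, 0.00351 without sleep restriction 2). For the small subunit, leaving out 1 library gave -0.183 to -0.0768 over 26 or 27 genes. The log2 ratio of the summed counts lay between -0.09 and -0.06 throughout. Counting Mrps30 and Mrps18a as large changed neither median. Crossing of 0 with 1 library left out and the filter run again was checked for the 26 named genes tested only. Among them the log2 change crossed 0 for Mrpl18 (-0.433 to 0.0891), Mrpl32 (-0.0030 to 1.23), Mrps21 (-0.15 to 0.33), Mrps18b (-0.44 to 0.28), Mrps23 (-0.0032 to 0.49), Mrps18c (-0.0030 to 0.58) and Mrps36 (-0.766 to 0.0614). With the genes of the full fit kept, Mrpl32, Mrps23 and Mrps18c stayed just above 0 without sleep restriction 2, at 0.0036, 0.0037 and 0.0035. In that fit genes outside the 26 crossed 0 too, among them Mrpl38 (-0.33 to 0.36) and Mrpl27 (-0.52 to 0.22). The cause was not tested. A replicate block left 0 of these genes called and a median of -0.12; over all genes it called 5 against 1 without it. The labels do not pair the numbers (correlation of deviations 0.207, 2 pairs). Over all genes DESeq2 called 2, no filter 5, limma-voom 0, no robust estimation 0, each library left out 0, and counting the replicate 1 libraries as sums over 10 draws, an alternative chosen after seeing the data, 2.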
